A study of Mus musculus with 6 samples.

Results

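The genes described here encode the subunits of the oxidative phosphorylation machinery, taken from RNAseq of mammary tumors of NeuT/ATTAC mice. Members were the protein-coding genes whose symbols begin with Nduf and a subunit letter (complex I), Sdha to Sdhd (complex II), Uqcr (complex III), Cox4 to Cox8 (complex IV), Atp5 (complex V), or mt-Nd, mt-Co, mt-Atp and mt-Cytb. Of 54532 gene IDs in each tumor's table, 98 met the rule, of which 85 lie on nuclear chromosomes and 13 on the mitochondrial chromosome. Measured FPKM (fragments per kilobase of exon, scaled by the reads of the library) was high enough for testing, a mean of at least 0.5 over the tumors, in 95 members: 82 nuclear and all 13 mitochondrially encoded. Cox7b2 was at 0 in every tumor, as was a second gene ID carrying the symbol Atp5o, and Cox8c reached 0.0919 FPKM in 1 tumor.

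All 6 tumors came from mice of 1 genotype, which carried MMTV-NeuT (an activated rat Erbb2 under the mouse mammary tumor virus promoter, hence active mainly in mammary epithelium) together with FAT-ATTAC (an AP20187-inducible caspase expressed in adipocytes from the Fabp4 promoter) on the FVB strain. Every mouse received AP20187 at 0.4 mg/kg from 6 weeks of age, which induces mammary fibrosis, so that no tumor here is free of adipocyte ablation. From 8 weeks of age mice were given 100 μg of an anti-PD-1 mAb (3 tumors) or the same amount of a matching IgG (3 tumors) 2 times a week, and the comparison asks how tumor gene expression differed between the antibodies. The sample labels describe AP20187 as given biweekly and the methods as triweekly, and the age at which the tumors were taken is not in the labels. A legend in the study speaks of RNA pooled within each group, whereas there are 3 numbered replicates per group. Whether a replicate is 1 tumor or a pool is not given in the labels. Each replicate is called a tumor here.

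Oxidative phosphorylation takes place in the inner mitochondrial membrane, where complexes I to IV pass electrons from NADH and succinate to oxygen while complexes I, III and IV pump protons, and complex V, the ATP synthase, uses the resulting gradient to make ATP. Complex II is built from nuclear genes only, whereas core membrane subunits of complexes I, III, IV and V are encoded by mitochondrial DNA, which is copied and transcribed apart from the nucleus. Assembly therefore joins proteins made by separate gene expression systems, and many nuclear subunit genes carry promoter sites for the nuclear respiratory factors NRF1 and NRF2 (GABP, an ETS factor) and for YY1.

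The read total behind the FPKM of a tumor, worked out from the steps between low values, was between 22009893 and 25596230, and 97.0% to 97.3% of the values above 0 were whole reads within 0.1 when multiplied by exon length. Of the mammary epithelium markers, Epcam (690 to 1150 FPKM) and the luminal keratins Krt8 (431 to 1041) and Krt18 (685 to 1385) were abundant in all tumors. The luminal keratin Krt19, given below, was far lower than these in every tumor. The basal keratins Krt5 (0.248 to 2.44) and Krt14 (0.311 to 2.99) were low, while the muscle marker genes ranged from near 0 up to 50.1 FPKM, and were high in tumors of both groups. Over all genes, 937 of 15069 tested were higher with anti-PD-1 at a limma unadjusted p under 0.05 (6.22%), 911 were lower (6.05%), and 0 passed the threshold after Benjamini-Hochberg adjustment. Nothing below passed it either, so differences are given as values and as unadjusted calls.

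The promoters of 3 nuclear members higher with anti-PD-1 are shown because they hold the sites for which this gene class is known. Each is the RefSeq GRCm38.p6 window from 250 bases before to 50 after the gene's start, written 5′ to 3′ along the gene, with matches on either strand to the palindromic NRF1 half-site pair, the ETS core (CCGGAAG) or the YY1 core in capitals. Cox6a1 (chr5:115348909-115349208, minus strand) has 2 NRF1 matches and 1 ETS match, Ndufs6 (chr13:73328433-73328732, minus strand) has an NRF1 match followed by a YY1 match, and Ndufb7 (chr8:83566508-83566807, plus strand) has 1 ETS match.
Cox6a1: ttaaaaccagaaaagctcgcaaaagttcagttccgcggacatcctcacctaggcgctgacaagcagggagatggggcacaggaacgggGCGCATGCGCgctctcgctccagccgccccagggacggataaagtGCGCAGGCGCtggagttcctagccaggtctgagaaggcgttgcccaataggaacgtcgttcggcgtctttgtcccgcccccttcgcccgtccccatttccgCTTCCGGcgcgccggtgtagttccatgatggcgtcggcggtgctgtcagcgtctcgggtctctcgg
Ndufs6: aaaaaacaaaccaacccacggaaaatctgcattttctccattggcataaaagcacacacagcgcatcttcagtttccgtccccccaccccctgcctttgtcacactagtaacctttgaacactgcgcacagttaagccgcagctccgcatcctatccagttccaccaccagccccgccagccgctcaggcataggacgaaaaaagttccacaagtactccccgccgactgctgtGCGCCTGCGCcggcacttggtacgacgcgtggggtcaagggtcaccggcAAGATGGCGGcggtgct
Ndufb7: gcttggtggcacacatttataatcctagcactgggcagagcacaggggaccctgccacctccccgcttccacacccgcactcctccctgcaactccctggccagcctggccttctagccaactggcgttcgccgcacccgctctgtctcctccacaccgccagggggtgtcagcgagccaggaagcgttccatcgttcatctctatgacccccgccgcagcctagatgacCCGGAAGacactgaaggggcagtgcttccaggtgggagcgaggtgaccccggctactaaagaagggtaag

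A window was found for 66 of the 85 nuclear members. The NRF1 letters stood in 16 of them (24.2%), against 4.78% of all 27025 windows and 6.85% of the 16514 of protein-coding genes. The ETS letters stood in 15 (22.7%, against 9.12% and 12.3%), and the YY1 letters in 4 (6.06%, against 0.899% and 1.34%). An ETS match can share its last 3 bases with the start of a YY1 match, so these counts can overlap. Some member windows, 30 in all, held at least 1 of the 3 motifs. Among the 16 members called below in either direction that had a window, 8 held one, which is about the share over all member windows. A match is a run of letters and not a bound site.

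The second set of sequences bears on how far the mitochondrial values can be read. Each is 90 bases of a mitochondrial transcript (GRCm38) followed by the same stretch of its closest copy on a nuclear chromosome, with differing bases in capitals.
mt-Co2: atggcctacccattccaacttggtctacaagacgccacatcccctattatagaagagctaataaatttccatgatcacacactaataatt
Gm28661: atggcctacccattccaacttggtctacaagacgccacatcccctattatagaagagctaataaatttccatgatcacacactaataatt
mt-Nd3: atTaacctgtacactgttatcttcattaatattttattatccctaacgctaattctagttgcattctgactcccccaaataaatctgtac
Gm28438: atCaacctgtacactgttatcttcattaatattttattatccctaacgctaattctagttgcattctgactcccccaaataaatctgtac
mt-Cytb: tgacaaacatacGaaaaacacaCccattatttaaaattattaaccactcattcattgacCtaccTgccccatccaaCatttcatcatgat
Gm11410: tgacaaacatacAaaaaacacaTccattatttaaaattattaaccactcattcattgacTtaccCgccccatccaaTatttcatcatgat

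The mt-Co2 stretch (chrM:7013-7102) and that of the pseudogene Gm28661 (chr1:24615476-24615565) differed at 0 of 90 bases, and mt-Nd3 (chrM:9459-9548) differed from Gm28438 (chr1:24613030-24613119) at 1. Over its aligned length of 681 bases Gm28661 was 100% identical to mt-Co2. The mt-Cytb stretch (chrM:14146-14235) differed from Gm11410 (chr4:80003990-80004079) at 5 bases, and Gm11410 was at 0 FPKM in every tumor. Identical copies lay side by side on chromosome 1 for mt-Co2, mt-Atp6 (Gm10925), mt-Co3 (Gm28437), mt-Nd4l (Gm10222) and the first 876 of 1378 bases of mt-Nd4 (Gm28439), in addition to that of mt-Nd3 and 483 bases of mt-Co1 (Gm29216, 99.8% identical).

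The 13 mitochondrially encoded genes fell into 2 sets of levels. The catalytic subunit mt-Co1 measured 11020, 11114 and 5104 FPKM in the IgG tumors and 5304, 8494 and 7300.2 in the anti-PD-1 tumors, the highest values of any member. A further 6 genes (mt-Nd1, mt-Nd2, mt-Nd4, mt-Nd5, mt-Nd6 and mt-Cytb) were between 762 and 5824 FPKM in every tumor. In contrast, mt-Co2, mt-Atp8, mt-Atp6, mt-Co3, mt-Nd3 and mt-Nd4l, which follow each other between positions 7013 and 10173, stayed between 2.01 and 106 FPKM.

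The genes of the low set were those with an identical or nearly identical chromosome 1 copy over their whole length, apart from mt-Atp8, for which no such copy was annotated and which overlaps mt-Atp6. Their copies had FPKM of the same order or higher. For mt-Co3 the values were 41.8, 41.7 and 18.1 with IgG and 22.8, 25.1 and 32.9 with anti-PD-1, and for its copy Gm28437 they were 58.0, 65.7 and 24.02, then 26.3, 54.4 and 57.5. The copy of mt-Nd3, Gm28438, stood above the gene itself in all tumors, at 87.8, 151.6 and 28.4 FPKM with IgG and 27.1, 118.1 and 106.0 with anti-PD-1, where mt-Nd3 was between 3.41 and 8.26. Reads shared between a gene and such a copy cannot be assigned from the FPKM, so the 5 low genes with such a copy and parts of mt-Co1 and mt-Nd4 are uncertain as levels and as differences. The nearest annotated copy of mt-Atp8, Gm28925, was 81.4% identical and at 0 FPKM, and what its low level came from was not tested. The nearest copies of mt-Nd1, mt-Nd2, mt-Nd5, mt-Nd6 and mt-Cytb were at most 96.7% identical and at most 1.70 FPKM.

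**Figure D1:**
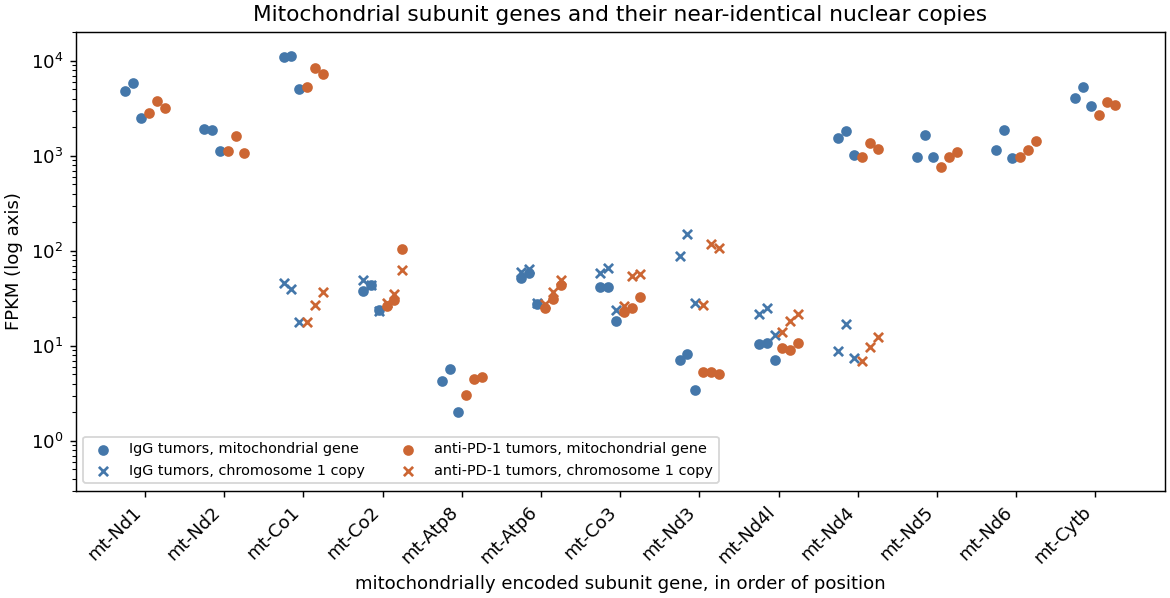
FPKM on a log axis of the 13 mitochondrially encoded subunit genes in order of position (filled points, 6 tumors each, IgG blue and anti-PD-1 orange) and of their chromosome 1 copies of at least 98% identity (crosses). The genes from mt-Co2 to mt-Nd4l lie at or below 106 FPKM, near or below their copies except for mt-Co2 in anti-PD-1 3, and the 7 others at 762 FPKM or more.

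No mitochondrially encoded gene differed between the antibodies beyond the spread of its tumors. Of the 13, 10 had a lower and 3 a higher mean log2 value with anti-PD-1, 0 had a limma p under 0.05, and in none were the groups apart. The median log2 fold change was −0.29 (range −0.42 for mt-Atp6 to 0.36 for mt-Co2), beside 0.01 over all genes tested. Among the 5 genes with no near-identical copy and outside the copied stretch all were lower, with a median of −0.34.

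Cytochrome b, mt-Cytb, the core subunit of complex III, measured 4018, 5359 and 3355 FPKM with IgG and 2712, 3699 and 3435 with anti-PD-1, a log2 fold change of −0.35 ± 0.32 (SE, n = 3 per group, limma adjusted p = 0.674). The complex I subunit mt-Nd1 measured 4759.6, 5824 and 2474 against 2802, 3767 and 3164 FPKM (−0.34 ± 0.40, adjusted p = 0.751). In both genes IgG 2 was highest, and the anti-PD-1 tumors lay inside the IgG range except for anti-PD-1 1 in mt-Cytb.

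IgG 2 held the highest value of 9 of the 13 genes and IgG 3 the lowest of 8. The deviation of a gene from its own mean over the tumors had a median over the 13 genes of 0.25, 0.51 and −0.44 in IgG 1 to 3 and of −0.37, −0.05 and 0.10 in anti-PD-1 1 to 3, on the log2 scale. The spread inside the IgG group thus exceeded the distance between the groups. Over the 5 genes with no near-identical copy and outside the copied stretch, the median deviation was lowest in anti-PD-1 1 (−0.37), beside −0.32 in IgG 3. Without IgG 2 the median log2 fold change of the 13 genes was −0.054, and without IgG 3 it was −0.51, with mt-Atp6, mt-Co3, mt-Nd1 and mt-Nd3 then at p under 0.05. It was −0.15 without anti-PD-1 1 and −0.19 without IgG 1.

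The gene mt-Co2 went apart from the rest in 1 tumor. It measured 37.9, 44.0 and 23.7 FPKM with IgG and 26.3, 30.1 and 105.7 with anti-PD-1, and its identical copy Gm28661 was also highest in anti-PD-1 3, at 62.6 FPKM against 23.2 to 49.04 in the other tumors. For mt-Nd6, the only subunit gene on the opposite mitochondrial strand, values were 1139, 1872 and 947 with IgG and 962, 1158 and 1429 with anti-PD-1 (−0.11 ± 0.33, adjusted p = 0.912). It overlaps the end of mt-Nd5, and whether counting used strand is not given in the sources used here, so reads of the overlap cannot be told apart.

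Nuclear subunit genes lay mostly on the other side of 0. Of the 82 tested, 60 had a higher mean with anti-PD-1 and 22 a lower one, with a median log2 fold change of 0.18 (range −0.63 to 0.86). At an unadjusted p under 0.05, 15 were higher (18.3%, against 6.22% of all genes tested) and 3 lower (3.66%, against 6.05%), and 0 had an adjusted p under 0.05. In 20 members (24.4%, against 9.3% of all genes) every anti-PD-1 tumor stood above every IgG tumor, and in 3 (3.66%, against 8.75%) every one stood below. The nuclear median was 0.30 without IgG 1, 0.088 without IgG 3, 0.10 after quantile normalization and 0.11 when libraries were scaled without mitochondrially encoded genes, and 10 members were higher at p under 0.05 in the latter 2 and without IgG 2. Over all 95 tested members, nuclear and mitochondrially encoded, the count called lower was 6 without IgG 3 and 0 without anti-PD-1 3. The 6 included mt-Atp6, mt-Co3, mt-Nd1 and mt-Nd3, and the nuclear ones were Cox7a2 and Uqcrh. Subunit genes of the same complexes are known to be expressed together, so members are not independent of each other.

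Summed over the nuclear members, FPKM was 6683, 5678 and 5397 in the IgG tumors and 7062, 7080 and 6888 in the anti-PD-1 tumors (5920 ± 676 against 7010 ± 106, SD, n = 3 each). The groups did not overlap, by a narrow margin, with IgG 1 close to the anti-PD-1 tumors. As a share of reads the nuclear members took 1.07%, 0.917% and 0.919% with IgG and 1.17%, 1.14% and 1.10% with anti-PD-1, while the mitochondrial members took 3.28%, 3.74% and 1.90%, then 1.84%, 2.70% and 2.39%. The latter shares overlapped.

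Within a tumor the ratio of summed mitochondrial to summed nuclear FPKM does not depend on how libraries are scaled. It was 3.82, 5.23 and 2.79 with IgG and 2.08, 2.99 and 2.74 with anti-PD-1 (3.95 ± 1.22 against 2.61 ± 0.468, SD, n = 3 each). IgG 3 lay below anti-PD-1 2, so the groups overlapped. With only the 5 mitochondrial genes that had no near-identical copy and lay outside the low set, which leaves out mt-Atp8 (log2 fold change 0.09), the ratio was 2.16 ± 0.670 against 1.42 ± 0.208, with 1.64 the lowest IgG and 1.58 the highest anti-PD-1 value. The difference of the median log2 fold changes, mitochondrial minus nuclear, was −0.47, and it ranged from −0.22 (without IgG 2) to −0.60 (without IgG 3) when 1 tumor was left out, and was −0.18 after quantile normalization.

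**Figure D2:**
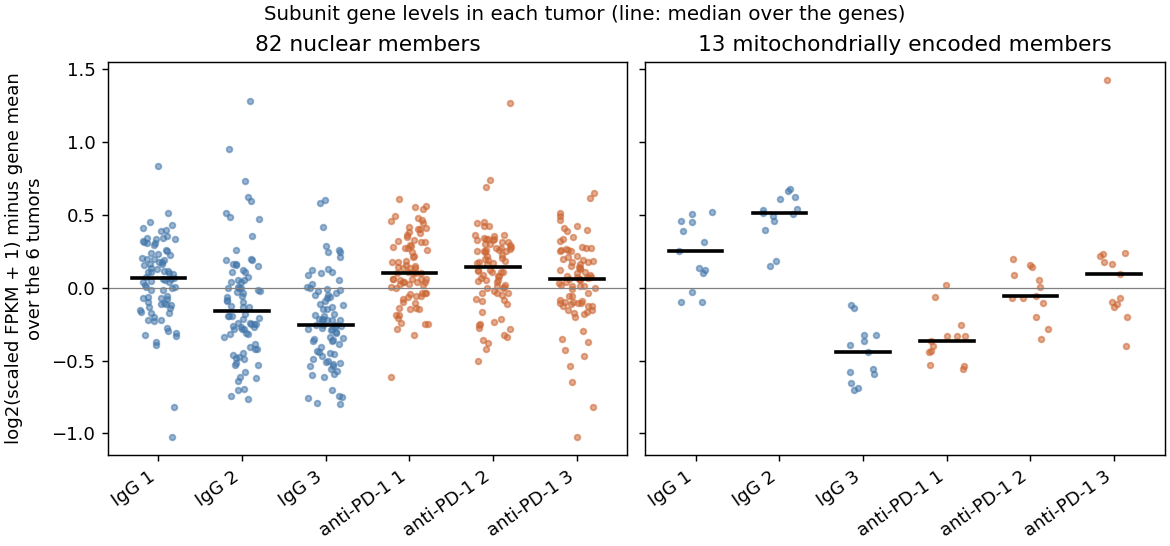
Deviation of each subunit gene's log2(scaled FPKM + 1) from its mean over the 6 tumors, by tumor, for 82 nuclear (left) and 13 mitochondrially encoded genes (right). Black lines are medians: the nuclear medians run from −0.26 (IgG 3) to 0.14 (anti-PD-1 2), the mitochondrial ones from −0.44 (IgG 3) to 0.51 (IgG 2).

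The nuclear members varied more among the IgG tumors than among the anti-PD-1 tumors. Their median deviations were 0.07, −0.16 and −0.26 in IgG 1 to 3 and 0.10, 0.14 and 0.06 in anti-PD-1 1 to 3. IgG 3 held the lowest value of 34 nuclear members and IgG 2 of 28, while IgG 1 held that of 6 and the anti-PD-1 tumors that of 3, 5 and 6. The SD of log2 values within a group had a median over nuclear members of 0.29 with IgG and 0.17 with anti-PD-1, and was larger with IgG in 61 of 82 (74.4%). Over all genes tested the medians were 0.26 and 0.23, with the IgG SD larger in 55.6%, and over the 4885 genes of similar FPKM in 59.2%. The difference between nuclear and mitochondrial genes was widest in IgG 2, where the mitochondrial median stood 0.67 above the nuclear one, against −0.47 in anti-PD-1 1.

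Complex I, the NADH dehydrogenase, is the largest of the complexes. Of its 37 nuclear genes, 30 had a higher mean with anti-PD-1, 9 were higher at p under 0.05 (24.3%, against 18.3% of all nuclear members and 6.22% of all genes) and 1 was lower (2.70%), with a median log2 fold change of 0.23. The 7 core subunit genes, among them the carriers of the flavin and the iron-sulfur clusters, had a median of 0.29 with 3 called higher, and the 30 accessory genes a median of 0.18 with 6 called higher and 1 lower. Levels ran from 2.14 FPKM on average for Ndufb2 to 149.8 for Ndufa4, which is counted here by its symbol although it is now usually placed with complex IV.

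The accessory subunit Ndufb7 (chr8:83566671-83571626), whose promoter is shown above, had the lowest p of all members. It measured 13.2, 10.3 and 12.9 FPKM with IgG and 25.7, 19.5 and 23.2 with anti-PD-1. The lowest anti-PD-1 tumor stood well above the highest IgG tumor, and the log2 fold change was 0.86 ± 0.17 (SE, n = 3 per group, limma adjusted p = 0.344). Ndufb10, an accessory subunit of the membrane arm, measured 44.1, 28.3 and 32.5 against 55.7, 75.6 and 58.3 FPKM (0.85 ± 0.22, adjusted p = 0.344). Ndufs6, a zinc-binding subunit needed late in assembly, measured 41.7, 30.4 and 30.7 against 53.6, 60.2 and 56.1 FPKM (0.73 ± 0.17, adjusted p = 0.344). With 3 against 3 tumors the two-sided exact permutation test cannot go below p = 0.1, which is the value for each of these genes.

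Among core subunits, Ndufs7, which carries the terminal iron-sulfur cluster, measured 36.6, 32.5 and 30.5 FPKM with IgG and 49.1, 48.5 and 43.3 with anti-PD-1 (0.49 ± 0.15). Ndufv1, the flavin-binding subunit that takes electrons from NADH, measured 28.7, 27.5 and 30.6 against 37.9, 41.7 and 37.7 FPKM (0.43 ± 0.14). Both had groups that did not overlap, and the limma p of Ndufv1 was 0.0568 without IgG 2 and 0.0600 without anti-PD-1 2. Not all core genes followed to the same degree: Ndufs8 had a log2 fold change of 0.29, Ndufs3 of 0.23, Ndufs1 of −0.06 and Ndufv2 of −0.10, all with overlapping groups. Ndufs3 shares 75.7% of its transcript with a copy of at least 98% identity and is uncertain.

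The accessory genes Ndufa12, Ndufa8 and Ndufa10 were also called higher. Ndufa12 measured 33.1, 26.03 and 23.7 FPKM with IgG and 38.5, 48.0 and 46.5 with anti-PD-1 (0.68 ± 0.18), with 36.2% of its transcript in a near-identical copy. Ndufa8 measured 62.1, 47.0 and 86.7 against 110.5, 100.4 and 96.4 FPKM (0.69 ± 0.24), and Ndufa10 21.7, 17.6 and 22.7 against 25.6, 28.7 and 29.0 FPKM (0.42 ± 0.16). Without 1 tumor the limma p of Ndufa8 was 0.0513 (IgG 1), 0.0703 (IgG 2) or 0.0656 (anti-PD-1 1), and that of Ndufa10 was 0.113 (IgG 2), 0.0818 (anti-PD-1 2) or 0.0871 (anti-PD-1 3). In Ndufa8 and Ndufa10 IgG 3 came closest to the anti-PD-1 tumors, unlike in most nuclear members. The accessory gene Ndufb2 was the single complex I gene called lower, at 3.21, 1.97 and 2.77 FPKM against 1.597, 1.55 and 1.74 (−0.45 ± 0.19, adjusted p = 0.406); its exons overlap those of Braf and of 2 other annotated genes. Its call was lost without any single tumor other than IgG 2, with a limma p of 0.0847 (without anti-PD-1 3) to 0.152 (without IgG 1). Ndufb3 and Ndufc1 were separated between the groups at a p above 0.05, with log2 fold changes of 0.38 and 0.46.

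Complex II, succinate dehydrogenase, which also works in the tricarboxylic acid cycle, split by subunit. The flavoprotein Sdha measured 60.5, 52.8 and 59.1 FPKM with IgG and 62.5, 76.2 and 68.4 with anti-PD-1 (0.26 ± 0.15), and the membrane anchor Sdhc 33.6, 27.3 and 32.6 against 46.7, 45.7 and 33.9 FPKM (0.42 ± 0.18). Both had groups that did not overlap, and neither had a p under 0.05. The iron-sulfur subunit Sdhb measured 21.9, 37.6 and 28.5 against 23.2, 26.04 and 25.6 FPKM (−0.19 ± 0.21), and the other anchor, Sdhd, 65.3, 109.2 and 86.3 against 69.7, 70.1 and 45.3 FPKM (−0.48 ± 0.26). These last 2 genes lie on chromosomes 4 and 9, and in both IgG 2 was the highest tumor.

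Complex III, which passes electrons from ubiquinol to cytochrome c, had 8 nuclear members with a median log2 fold change of 0.11, 1 called higher and 1 lower (12.5% each way, against 6.22% and 6.05% of all genes). Uqcrq measured 47.9, 31.3 and 25.9 FPKM with IgG and 66.6, 58.0 and 60.4 with anti-PD-1 (0.85 ± 0.24, adjusted p = 0.344). The hinge subunit Uqcrh (chromosome 4) measured 101.2, 151.0 and 94.2 against 79.0, 77.8 and 61.9 FPKM (−0.63 ± 0.23, adjusted p = 0.370), the lowest fold change of all members. The groups were apart in both genes, in opposite directions, and the limma p of Uqcrh was 0.0706 without IgG 2 and 0.0977 without anti-PD-1 3. Uqcr10, the most abundant nuclear member of this complex at 172.2 FPKM on average, had a log2 fold change of 0.43 with overlapping groups, and the core proteins Uqcrc1 and Uqcrc2 had −0.15 and −0.06.

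The electron carrier between complexes III and IV and its complex III partner were on the same side as most nuclear members. Cyc1, cytochrome c1, which is a complex III subunit outside the symbol rule, measured 51.6, 36.0 and 52.8 FPKM with IgG and 76.4, 59.0 and 79.1 with anti-PD-1 (0.62 ± 0.21, adjusted p = 0.362). Cycs, cytochrome c itself, had a log2 fold change of 0.32 with overlapping groups.

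Complex IV, cytochrome c oxidase, had 16 tested nuclear members with a median log2 fold change of 0.06, of which 3 were called higher (18.8%, against 6.22% of all genes) and 1 lower (6.25%, near the 6.05% of all genes). Cox6a1 measured 293.0, 202.6 and 272.4 FPKM with IgG and 457.7, 414.0 and 415.4 with anti-PD-1 (0.76 ± 0.21, adjusted p = 0.344). Cox5b, a zinc-binding subunit, measured 64.2, 44.9 and 59.3 against 86.9, 89.1 and 82.8 FPKM (0.63 ± 0.18), with 45.1% of its transcript in a near-identical copy. Cox8a, the most abundant nuclear member of all at 498.8 FPKM on average, measured 456, 356 and 445 against 556, 595 and 586 FPKM (0.48 ± 0.20). In these 3 genes IgG 2 was the lowest tumor. The limma p of Cox8a was 0.147 without it and 0.0901, 0.113 and 0.108 without anti-PD-1 1, 2 and 3.

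The subunit Cox7a2 (chromosome 9) went the other way, at 113.3, 152.0 and 106.5 FPKM with IgG and 88.8, 78.4 and 70.9 with anti-PD-1 (−0.62 ± 0.20, adjusted p = 0.355), with groups that did not overlap and a limma p of 0.0617 without anti-PD-1 3. It is the ubiquitous form of a pair whose heart and muscle form, Cox7a1, measured 9.94, 9.502 and 14.9 against 5.84, 8.71 and 9.91 FPKM (−0.44 ± 0.25). Together the pair was mainly Cox7a2, which made up 87.7% to 94.1% of their summed FPKM in each tumor.

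Complex V, the ATP synthase, had 17 tested nuclear members with a median log2 fold change of 0.28, of which 2 were called higher (11.8%, against 6.22% of all genes). Both encode the same protein, the c-ring subunit through which protons pass. Atp5g1 measured 17.8, 16.0 and 21.6 FPKM with IgG and 30.3, 27.2 and 26.1 with anti-PD-1 (0.58 ± 0.16), and Atp5g3 102.2, 74.6 and 114.0 against 151.9, 132.0 and 133.3 FPKM (0.54 ± 0.20). The limma p of Atp5g3 was 0.106 without IgG 2 and 0.0953, 0.0565 and 0.0599 without anti-PD-1 1, 2 and 3. The third gene for this protein, Atp5g2, had a log2 fold change of 0.36 with overlapping groups. Atp5g1 gave the smallest part of the 3 genes' FPKM, 7.31% to 10.2%, with Atp5g2 at 38.3% to 51.4% and Atp5g3 at 40.0% to 51.4%. The catalytic subunit Atp5b was separated between the groups (188 to 260 against 285 to 338 FPKM, log2 fold change 0.42, p above 0.05). Of the other catalytic-head genes, Atp5d and Atp5e had log2 fold changes of 0.42 and 0.37 with overlapping groups, and Atp5a1, the most abundant of this complex at 278.9 FPKM on average, and Atp5c1 had 0.14 and −0.02.

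**Figure D3:**
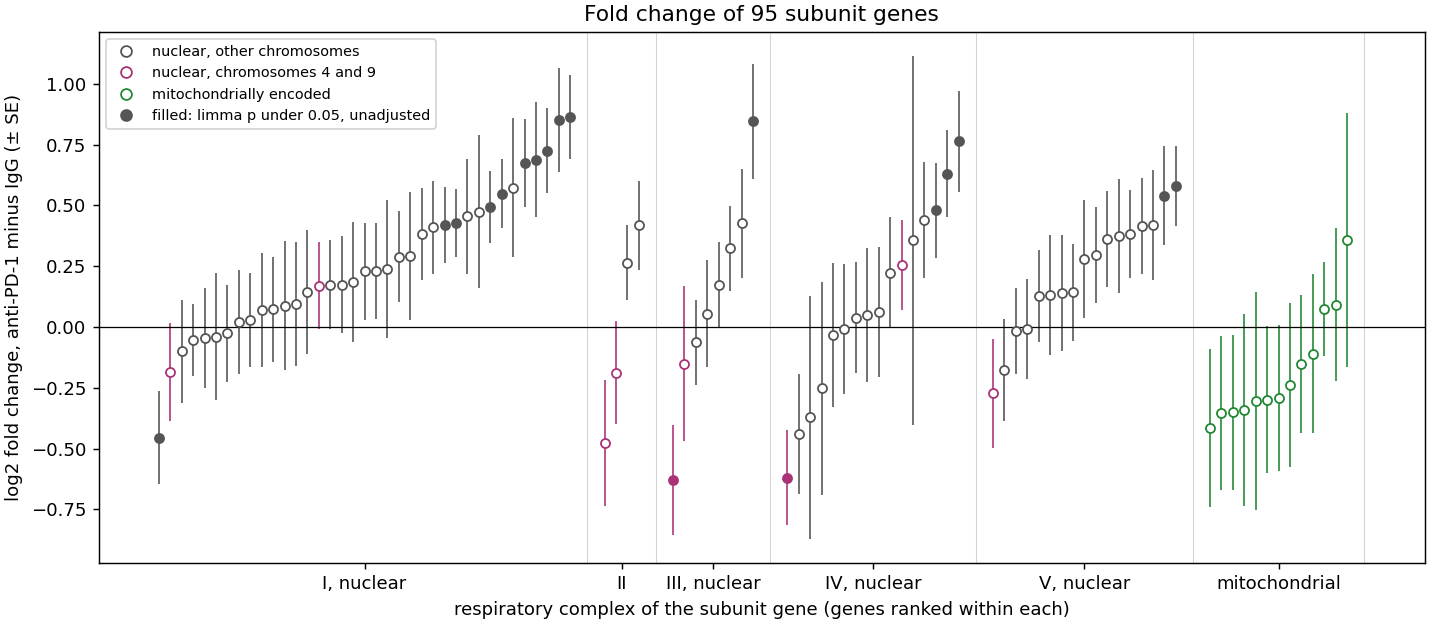
Log2 fold change (anti-PD-1 minus IgG, ± SE, 3 tumors per group) of the 95 tested subunit genes, ranked within each complex. Filled points have an unadjusted limma p under 0.05 (15 higher, 3 lower), purple marks nuclear genes on chromosomes 4 and 9, and green marks mitochondrially encoded genes, all of which are open points.

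Of the 22 nuclear members with a lower mean, 7 lay on chromosomes 4 and 9 and 15 elsewhere. Genes of chromosomes 4 and 9 as a whole were lower with anti-PD-1, with a median log2 fold change of −0.40 over 926 tested genes of chromosome 4 and −0.36 over 798 of chromosome 9. The 9 members there had a median of −0.19, whereas the 73 nuclear members elsewhere had a median of 0.23, with 58 higher. Of the 3 members called lower, Uqcrh lies on chromosome 4, Cox7a2 on chromosome 9 and Ndufb2 on chromosome 6.

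The remaining members there, beside Sdhb and Sdhd, were Ndufb6 (31.7, 40.4 and 42.1 FPKM with IgG against 37.9, 26.1 and 36.3 with anti-PD-1), Ndufs5 (2.33 to 3.34 against 2.88 to 3.36), Uqcrc1 (19.9 to 40.0 against 20.4 to 36.6), Cox5a (22.3 to 28.8 against 26.5 to 37.3) and Atp5l (12.1 to 20.6 against 10.7 to 14.7). None of these had groups that were apart. Cox5a and Ndufs5 had the only positive log2 fold changes, 0.25 and 0.17. In IgG 2, where members on other chromosomes had a median deviation of −0.21, those on chromosomes 4 and 9 stood at 0.48, and in anti-PD-1 3 at −0.35 against 0.08. Their median log2 fold change was −0.38 without IgG 1 and −0.37 without anti-PD-1 1. The part of the chromosome-wide difference in these members was not tested.

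**Figure D4:**
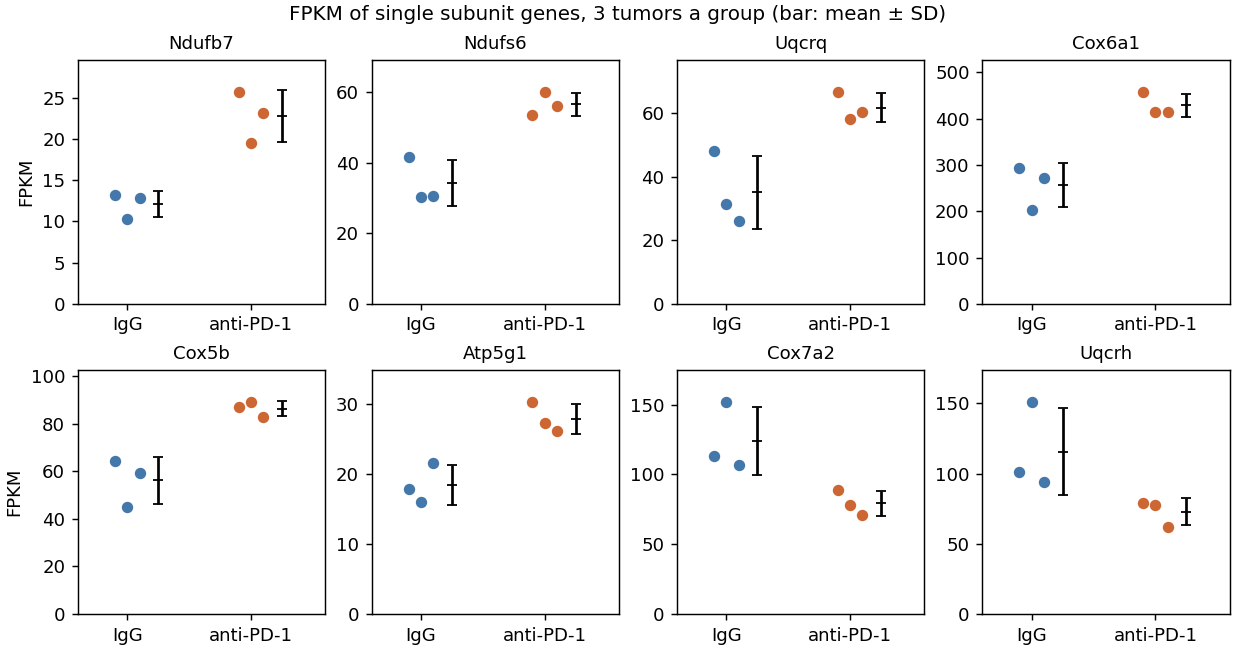
FPKM of 8 subunit genes in each tumor (points, IgG blue, anti-PD-1 orange, bars mean ± SD, n = 3), on axes that start at 0. In the first 6 panels every anti-PD-1 tumor lies above every IgG tumor, and in Cox7a2 and Uqcrh every one lies below.

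Several subunits come in tissue forms, and in most of these families the ubiquitous form gave nearly all the FPKM. Cox4i1 made up at least 99.1% of the Cox4i pair, Cox6a1 at least 98.07% of the Cox6a pair, Cox6b1 at least 99.5% of its pair, Cox8a at least 99.3% of the Cox8 genes and Ndufa4 at least 98.01% of the pair with Ndufa4l2. Cox7b was the only form seen of its pair. In the Cox7a pair the share was smaller, with Cox7a2 at 87.7% to 94.1% and the muscle form Cox7a1 at 5.88% to 12.3%. Cox4i1 itself measured 194, 184 and 210 FPKM with IgG and 303, 191 and 321 with anti-PD-1, so that anti-PD-1 2 lay among the IgG tumors. Cox6b1 (198 to 294 against 237 to 337 FPKM) and Cox7b (104 to 163 against 108 to 152) overlapped, as did Ndufa4 (90.04 to 167 against 150 to 186). Ndufa4l2, a form known to be induced in hypoxia, was at 1.58 to 3.03 FPKM, and the testis form Cox6b2 at 0.223 to 1.24.

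The muscle forms Cox6a2 and Cox8b, unlike Cox7a1, were detected in some tumors only. Cox6a2 measured 0, 3.98 and 0.181 FPKM with IgG and 1.49, 3.94 and 0 with anti-PD-1, and Cox8b 0, 2.43 and 1.37 against 0.651, 1.26 and 0. Both were at 0 in IgG 1 and anti-PD-1 3, where 3 reads on a transcript of 500 bases would give 0.273 and 0.253 FPKM. The highest Cox6a2 values were in IgG 2 and anti-PD-1 2, followed by anti-PD-1 1, whereas Cox8b was second highest in IgG 3.

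Markers of skeletal muscle were high in the tumors with the most Cox6a2. Acta1, skeletal actin, measured 0, 50.1 and 1.71 FPKM with IgG and 37.7, 48.4 and 0.0274 with anti-PD-1, and fast troponin Tnnt3 0.0574, 37.8 and 1.22 against 15.1, 43.2 and 0.239. Of the list's 14 genes, 10 had a mean of at least 0.5 FPKM, 0 were at 0 in all tumors, and their sum ranged from 10.6 to 209 FPKM with IgG and from 10.6 to 224 with anti-PD-1. The sum was high in 1 IgG and 2 anti-PD-1 tumors. Mb, myoglobin, had another pattern than Acta1 and Tnnt3, at 8.71, 8.69 and 2.50 FPKM with IgG and 5.05, 5.64 and 8.61 with anti-PD-1, and gave most of the sum in IgG 1 and anti-PD-1 3. The part of muscle in the values of the other subunit genes was not tested. Cox4i2, the lung and hypoxia form, did not run with the muscle forms, at 1.67, 0 and 0.624 FPKM against 1.19, 0.0523 and 0.107.

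**Figure D5:**
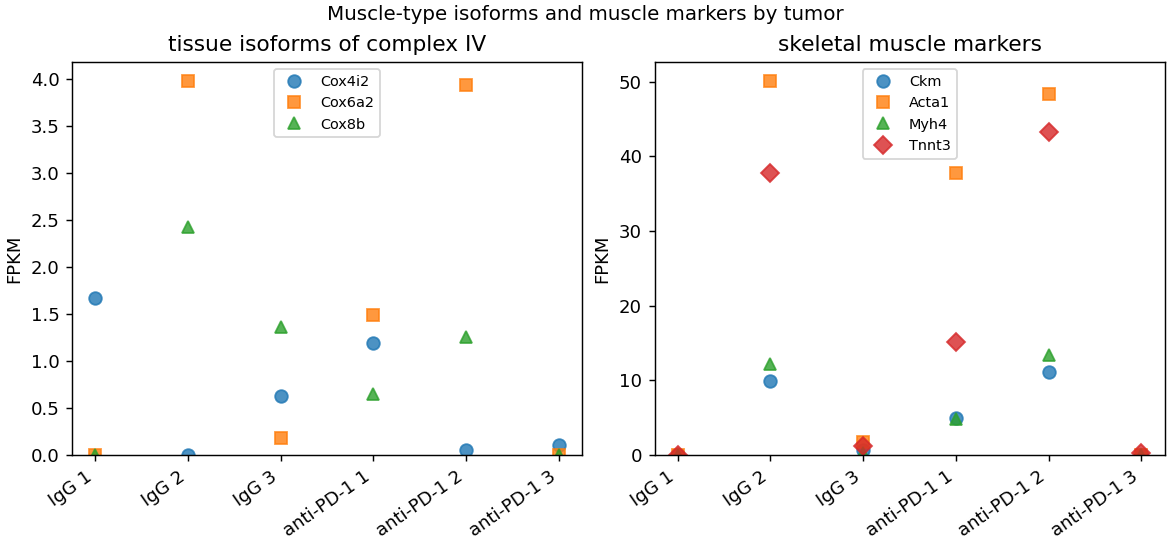
FPKM in each tumor of the complex IV tissue isoforms Cox4i2, Cox6a2 and Cox8b (left) and of 4 skeletal muscle markers (right), 1 point per gene and tumor. Cox6a2 and the markers are highest in IgG 2 and anti-PD-1 2 and intermediate in anti-PD-1 1.

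In whole tumors a lower value can come from fewer cells of a type or from less RNA per cell, and these cannot be told apart. Summed FPKM of the 11 mammary epithelium markers was 2270 to 3106 with IgG and 3151 to 4072 with anti-PD-1, groups that did not overlap, and 6 of the 11 were higher and 5 lower in mean log2 value, with only Krt19 at p under 0.05 (7.84, 77.9 and 7.46 against 4.09, 5.27 and 1.70 FPKM). The 10 macrophage markers summed to 428 to 935 against 630 to 944 FPKM, with log2 fold changes from 0.00 to 0.76 and only Cd68, at 0.76, called. The 9 fibroblast markers summed to 88.5 to 247 against 97.1 to 354 FPKM, the 7 endothelial ones to 21.6 to 29.8 against 15.0 to 28.8, the 8 white adipocyte ones to 46.6 to 59.5 against 36.6 to 45.3, and the 7 brown adipocyte ones to 16.7 to 23.2 against 17.8 to 26.7. All 7 endothelial genes had a lower mean log2 value with anti-PD-1, with 0 called. The brown adipocyte list holds the subunit gene Cox7a1, which gave 9.94 of its 19.1 FPKM in IgG 1. That sum is therefore not independent of the subunit values. The white adipocyte sums did not overlap and came mainly from Pnpla2, the one gene of that list at p under 0.05 (37.9, 49.97 and 47.0 against 34.4, 31.5 and 31.5 FPKM, −0.44). The 8 T cell genes summed to 2.42 to 6.64 against 1.51 to 2.33 FPKM. These sums did not overlap either, but only 1 of the 8 genes reached the mean of 0.5 FPKM needed for testing. The part of these differences in the subunit values was not tested.

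Genes that build or serve the complexes were counted on the same scale. Of 45 assembly factor genes, 42 were tested, 3 were higher at p under 0.05 and 3 lower (7.14% each way, near the 6.22% and 6.05% of all genes), and the median log2 fold change was 0.12. The highest was Cox19, a factor of copper delivery to complex IV (8.75, 6.95 and 7.47 FPKM against 10.2, 12.5 and 14.7, 0.62), and the lowest Ndufaf6, an assembly factor of complex I on chromosome 4 (−0.63, groups overlapping). Ndufaf4 and Atpaf1, also on chromosome 4, and Acad9 were the 3 called lower, with −0.58, −0.51 and −0.58.

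Genes for mitochondrial gene expression were counted in 2 lists. Of 78 genes for proteins of the mitochondrial ribosome, which translates the 13 mitochondrial messages, 77 were tested, 22 (28.6%, against 6.22% of all genes) were higher and 3 (3.90%, against 6.05%) lower at p under 0.05, with a median of 0.24. Mrps6 was the highest (31.3, 33.6 and 29.7 FPKM against 50.9, 47.6 and 107.9, 1.01) and Mrps22, on chromosome 9, the lowest (4.04, 6.91 and 5.09 against 2.44, 2.49 and 2.004, −0.91). Of the 26 genes for mitochondrial DNA and RNA factors 1 was higher (3.85%, below the 6.22% of all genes) and 0 lower, with a median of 0.04. The one called was Top1mt, the mitochondrial topoisomerase (0.57), and the lowest was Polg2, a subunit of the mitochondrial DNA polymerase (−0.35).

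Transcription regulators of mitochondrial biogenesis showed no called difference in 10 tested genes of 13, with a median of −0.02. They included Nrf1 (2.15 to 3.18 FPKM with IgG, 2.56 to 3.29 with anti-PD-1, log2 fold change 0.12), Gabpa (11.1 to 12.6 against 10.5 to 13.3, −0.06), Yy1 (18.6 to 21.9 against 17.9 to 23.7, −0.02), the coactivator Ppargc1a (2.53 to 4.58 against 3.80 to 4.804, 0.19) and Esrra (20.2 to 28.8 against 25.8 to 34.5, 0.22). The groups overlapped in all 10. The ribosomal and transfer RNA genes of the mitochondrial chromosome, 17 of 24 tested, had a median of −0.24 (range −1.82 to 0.82), with 0 called higher and 3 lower (17.6%, against 6.05% of all genes). Nuclear copies of these genes were not searched for. The ribosomal RNA mt-Rnr2 measured 295.5, 284.6 and 68.0 FPKM against 107.3, 100.5 and 76.4. IgG 3 lay below all other tumors, as in 8 mitochondrial messages, most of them in the low set.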

How the data were processed

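RNAseq of 3 IgG and 3 anti-PD-1 tumors was analyzed; groups and replicate numbers came from the sample titles. Per the labels and the methods, the authors used FastQC 0.11.9, cutadapt 3.5, an mm10 reference (Ensembl release 99) indexed with Bowtie2 2.4.1 and RSEM 1.3.1. The authors deposited FPKM values, 1 table per tumor; how FPKM was computed is not given in the sources used here. FPKM times the merged exon length of GENCODE M21 gave whole reads for nearly all values, so the values behave as gene counts over union exons, and levels between genes depend on those lengths. Of the gene IDs, 54409 matched the annotation and 123 did not.

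FPKM was divided by a median-of-ratios factor (1.00 to 1.01), and log2(value + 1) was fitted with limma 3.58.1 (R 4.3.3; eBayes with an intensity trend, two-sided, treatment as the only term) for the 15069 genes that reached 0.5 FPKM on average, with Benjamini-Hochberg adjustment over all of them. Fold changes are on this scale, which understates changes of low genes. No count model was used because the unit is not counts. The fit was tested on simulated data. Labels give replicate numbers and do not say how replicates relate to tumors and mice, so p-values measure the spread between these replicates. Near-identical copies are stretches of at least 100 bases at 98% identity or more in another transcript (blastn 2.17.0). Alternatives concerned the value added, the filter, the scaling, the variance model, the replicate block, single tumors left out and voom on recovered reads; leaving out members with a near-identical copy was added after seeing the data.

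The members and gene lists were chosen with earlier results of these data known. Genes named with values were the mitochondrially encoded genes, Sdha to Sdhd, families of tissue isoforms, in each complex the most abundant nuclear member and those with the highest and lowest fold change, members at p under 0.05, members on chromosomes 4 and 9, and of each other list the highest and lowest gene; 1 such member is not reported here. Other genes were named after their values were seen: core complex I genes, Ndufb3, Ndufc1, Uqcrc2, Atp5b, Atp5c1, assembly factors called lower, and marker genes.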

Additional observations from a re-analysis of the deposited data

How the results depend on the processing

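No member had an adjusted p under 0.05 under any of the 15 limma alternatives. Over all genes 0 did in the values reported, 1 did with voom, 12 without IgG 1, and 1 each without IgG 3 and anti-PD-1 2. The 15 and 3 members called higher and lower ranged from 10 to 22 and from 0 to 6 when 1 tumor was left out; the latter was 6 without IgG 3 and 0 without anti-PD-1 3. Medians of log2 fold change ranged from 0.088 (without IgG 3) to 0.30 (without IgG 1; nuclear), −0.51 to −0.054 (mitochondrial), −0.60 to −0.22 (their difference) and −0.38 to −0.15 (chromosomes 4 and 9), each keeping its sign. The mitochondrial median was −0.08 and its difference from the nuclear −0.18 after quantile normalization; the cause was not tested. Of the 18 called members 0 changed sign, and 7 stayed at p under 0.05 under all 16 alternatives, among them Ndufb7, Ndufb10, Ndufs6, Ndufs7, Uqcrq and Cox6a1. Ndufa12, Cox5b and Atp5g1 did so under the 15 run for them, since they were left out as members with a near-identical copy. Of 16 alternatives Ndufb2 lost the call in 9, Cox8a in 8, Ndufa10 and Atp5g3 in 6, Ndufa8 in 5, Ndufv1 in 4, Uqcrh in 2 and Cox7a2 in 1. Of the 77 members not called, 18 came under 0.05 in at least 1 alternative and 33 changed sign in at least 1.

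Deviations of tumors with the same replicate number correlated at −0.16, 0.01 and 0.19 over 15069 genes, so the numbers were not taken as pairs. With the replicate block 13 members were called higher and 2 lower. Without members that have a near-identical copy, 12 and 3 were. The 3 tumors of a group limit what can be shown: no single member could pass an exact test at 0.05, and the low mitochondrial genes rest on 10 to 1718 reads per tumor.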

Other observations

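Genes of neighboring pathways were read with the same fit, and none had an adjusted p under 0.05. Of the 14 tricarboxylic acid cycle genes 3 were higher with anti-PD-1 at p under 0.05 (21.4%) and 0 lower, with a median log2 fold change of 0.18 (background 6.22% of genes higher and 6.05% lower). Mdh2, the mitochondrial malate dehydrogenase, measured 43.3, 39.8 and 43.5 FPKM with IgG and 66.7, 65.8 and 63.2 with anti-PD-1 (0.62 ± 0.14, limma adjusted p = 0.344), and Idh2 and Dlst were the other genes called, at 0.57 and 0.38. The groups were apart in all 3. Dld, the E3 subunit shared by the 2-oxoacid dehydrogenases, was the lowest at −0.20 with overlapping groups.

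Among 21 glycolysis gene IDs 6 were higher at p under 0.05 (28.6%, against 6.22% of all genes) and 0 lower (against 6.05%), with a median of 0.69. Gapdh, the glycolytic dehydrogenase, measured 796, 168 and 293 FPKM with IgG and 872, 1200 and 1236 with anti-PD-1 (1.68 ± 0.53, adjusted p = 0.355), and IgG 1 stood near the anti-PD-1 tumors. Ldhb, a lactate dehydrogenase subunit, measured 150.0, 113.9 and 152.6 against 233.9, 257.0 and 206.9 FPKM (0.75 ± 0.19). Summed FPKM of the list was 4435, 2460 and 3835 against 4740, 5291 and 6967, lowest in IgG 2. Eno1, on chromosome 4, was the lowest gene at −0.25.

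Of 18 outer membrane and import genes 17 were tested, 2 were higher (11.8%, against 6.22% of all genes) and 1 lower (5.88%, near the 6.05% of all genes) at p under 0.05, and the median was 0.25. The channel Vdac2 measured 57.4, 46.8 and 42.3 FPKM with IgG and 67.8, 80.7 and 69.3 with anti-PD-1 (0.57 ± 0.17), and Tomm5, a component of the import channel on chromosome 4, measured 55.4, 66.8 and 52.4 against 42.3, 43.5 and 33.0 (−0.54 ± 0.18).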
